A study of Mus musculus with 26 samples.

Results

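The UDP-glucuronosyltransferases of mouse liver were followed through 10 member genes: Ugt1a1, Ugt1a6a and Ugt1a9 of the Ugt1a cluster, Ugt2b1, Ugt2b5, Ugt2b34, Ugt2b35, Ugt2b36 and Ugt2b38 of the Ugt2b cluster, and Ugt3a1. They were taken by symbol from a table of 47643 genes, through the Ensembl identifier without its version, and all 10 were found and passed the filter on low counts in each of the 5 comparisons. Messenger RNA had been sequenced in 26 libraries that form 10 groups. Whole liver of C57BL/6J wild-type mice aged 8 weeks and fed ad libitum was taken after corn oil or after TCPOBOP, an activator of the nuclear receptor CAR (2 libraries each). The titles give 36 hours after the injection and the source names give 6 hours. Whole liver of Fxr-/- Shp-/- mice, mutants of Nr1h4, whose product Fxr senses bile acids, and of Nr0b2, whose product Shp represses transcription, was compared with wild type (3 libraries each, C57BL/6J, 12 weeks, ad libitum). Whole liver of C3H/HeN mice aged 8 to 10 weeks and fed ad libitum was taken 48 hours after partial hepatectomy or as a 0 hour sham (3 each). Hepatocytes isolated from C57BL/6J wild-type mice aged 16 weeks and fasted for 10 hours came from animals on a 60% high fat diet or on chow (2 each). Whole liver of fl/fl Fxr fl/fl Shp mice, C57BL/6J, aged 10 to 12 weeks and fasted for 8 to 10 hours, came from animals on a cholic acid diet or on chow (3 each). Both of these last groups carry the floxed alleles, and the labels name no Cre. Sex, doses and any pooling of animals are not given in the sources used here, so p-values measure the spread between these libraries.

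UDP-glucuronosyltransferases are enzymes of the endoplasmic reticulum that join glucuronic acid, carried by UDP-glucuronic acid, to bilirubin, bile acids, steroids and drugs, which makes them soluble enough for bile and urine. Hepatocytes are a main site of this reaction. The Ugt1a proteins come from a single cluster in which each gene has its own first exon and all share the later exons, whereas each Ugt2b gene has a complete set of exons. Ugt3a1 is a distant relative that uses N-acetylglucosamine in place of glucuronic acid.

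In GRCm38 (GENCODE M21 annotation) Ugt1a1 spans chr1:88211959-88218997 on the plus strand, and 913 of its 2224 exonic bases are not shared with another gene of that strand. The unshared part is 879 of 2190 bases in Ugt1a9 and 2142 of 4312 in Ugt1a6a. The 6 Ugt2b members and Ugt3a1 share 0 exonic bases with other genes, but Ugt2b5 and Ugt2b38 are near copies: their coding sequences are 97% identical, and 629 stretches of 50 bases occur in both. Ugt2b37, which is not a member, is 94.7% identical to Ugt2b5 and has 281 such stretches in common with it. Ugt3a1 and Ugt3a2 are 93.2% identical, with 195 such stretches. Ugt1a genes share exons, so their counts may be partial, and the counts of Ugt2b5 and Ugt2b38 are uncertain as single genes. To a smaller degree this may also hold for Ugt2b37, Ugt3a1 and Ugt3a2.

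The same likeness reaches upstream of the start. The 150 bases before the RefSeq start (GRCm38.p6) are shown for 3 genes of the minus strand that have 1 stretch in common. They are Ugt2b5 (chr5:87140341-87140490), Ugt2b38 (chr5:87424204-87424353) and Ugt2b36 (chr5:87092556-87092705). These 3 were all lower in the knockout, as were Ugt2b1, Ugt2b35 and Ugt3a1, but they parted on cholic acid and with the high fat diet. On cholic acid the log2 fold changes were -4.89 for Ugt2b38, 0.07 for Ugt2b5 and 0.28 for Ugt2b36. With the high fat diet they were -4.28, -0.76 and -0.08 in that order. Capitals mark AGGTCA, the core element that many nuclear receptors bind.
Ugt2b5: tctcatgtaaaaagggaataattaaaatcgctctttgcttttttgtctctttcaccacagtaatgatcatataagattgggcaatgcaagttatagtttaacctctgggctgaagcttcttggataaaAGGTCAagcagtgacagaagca
Ugt2b38: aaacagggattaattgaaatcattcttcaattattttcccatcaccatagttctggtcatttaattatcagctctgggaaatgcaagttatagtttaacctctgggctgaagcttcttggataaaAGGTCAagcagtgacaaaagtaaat
Ugt2b36: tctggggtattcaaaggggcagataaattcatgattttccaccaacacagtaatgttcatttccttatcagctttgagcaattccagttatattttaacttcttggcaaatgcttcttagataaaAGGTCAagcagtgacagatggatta

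Ugt2b5 and Ugt2b38 have an identical run of 62 bases there, and Ugt2b36 has an identical run of 24 bases with Ugt2b5 and of 22 bases with Ugt2b38, around the AGGTCA. That element begins 22 bases before the start in Ugt2b5 and 25 bases before it in Ugt2b38 and Ugt2b36. Over the 140 aligned bases, the windows of Ugt2b5 and Ugt2b38 are 85.7% identical.

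Both strands of the RefSeq promoter windows (250 bases before to 50 after the start) of the 10 members were searched for short motifs, of which 4 are given here. AGGTCA was found in 5 of 10 members and in 16.26% of all 32851 promoters. In Ugt2b5, Ugt2b38 and Ugt2b36 it lies within the stretch they have in common, so the 5 members are not independent. It was also in Ugt2b35 and in Ugt1a9, which was not called in the knockout. Ugt2b1 and Ugt3a1 were lowered in the knockout and lack it in this window. TTCNNNGAA, the STAT5 motif, was found in Ugt1a6a alone of the 10 and in 8.3% of all promoters. GCGTG, the core of the AHR motif, and TGACNNNGC, the NRF2 motif, were found in 0 of 10, against 32.39% and 12.39% of all. A match is a description of letters and not a binding site.

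Depth ranged from 13949059 to 70367874 counts assigned to genes per library. Levels are given as CPM, the count of a gene relative to the scaled size of its library, with the scaling done within each comparison. Reads without a unique position made up 43.2% to 44.1% of the wild-type libraries and 25.5% to 26.9% of the Fxr-/- Shp-/- libraries, and their part in the results for near copies was not tested. Nr0b2 ranged from 13.7 to 28.2 CPM in wild-type livers and from 0.594 to 1.68 CPM in double knockout livers. Its partner Nr1h4 stood at 117.3 to 161.1 and 55.7 to 65.0 CPM. Summed hepatocyte markers stood above those of the other cell types in every library.

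Levels of different genes are compared per kilobase of unshared exon. In the wild-type livers Ugt2b5 led with 692 ± 24.7 CPM per kb (SD, n = 3), followed by Ugt2b36 at 473 ± 20.7, Ugt2b1 at 286 ± 49.5, Ugt1a1 at 274 ± 28.7, Ugt2b34 at 208 ± 21.6 and Ugt2b35 at 134 ± 10.1. Ugt2b1 and Ugt1a1 overlapped in this order, and the other neighbours among these 6 did not. Ugt1a9 reached 56.6 ± 17.2, Ugt3a1 20.9 ± 0.704, Ugt2b38 1.95 ± 1.06 and Ugt1a6a 1.52 ± 0.466 CPM per kb, the last pair overlapping. Ugt2b5 was also first in both chow groups, without overlap with the next gene. In the library labelled corn oil 2 it was first, at 588 CPM per kb, and in the library labelled corn oil 1, whose label is in doubt (values with the TCPOBOP experiment), it stood at 653, behind Ugt2b1 at 828 and Ugt2b36 at 670. Ugt2b1 was first in the sham livers of C3H/HeN mice, at 443 ± 20.6 against 364 ± 23.1 CPM per kb for Ugt2b5 (SD, n = 3). In the Fxr-/- Shp-/- livers Ugt1a1 was first, at 492 ± 141 CPM per kb, ahead of Ugt2b36 at 242 ± 15.1 without overlap. Ugt1a1 then made up 34.96 ± 8.17% of the summed level per kb of the 10 genes, against 12.8 ± 1.03% in wild type (SD, n = 3). If reads of the antisense gene Gm20528 were also set aside in the counting, 385 unshared bases of Ugt1a1 would remain and its level per kb would be higher. If reads of the shared exons were counted for Ugt1a1, its level per kb would be lower. Before scaling by length, the knockout had 933 ± 18.4 CPM of Ugt2b34, 499 ± 31.1 of Ugt2b36 and 449 ± 129 of Ugt1a1 (SD, n = 3). The first rank of Ugt1a1 there thus depends on the length used.

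**Figure D1:**
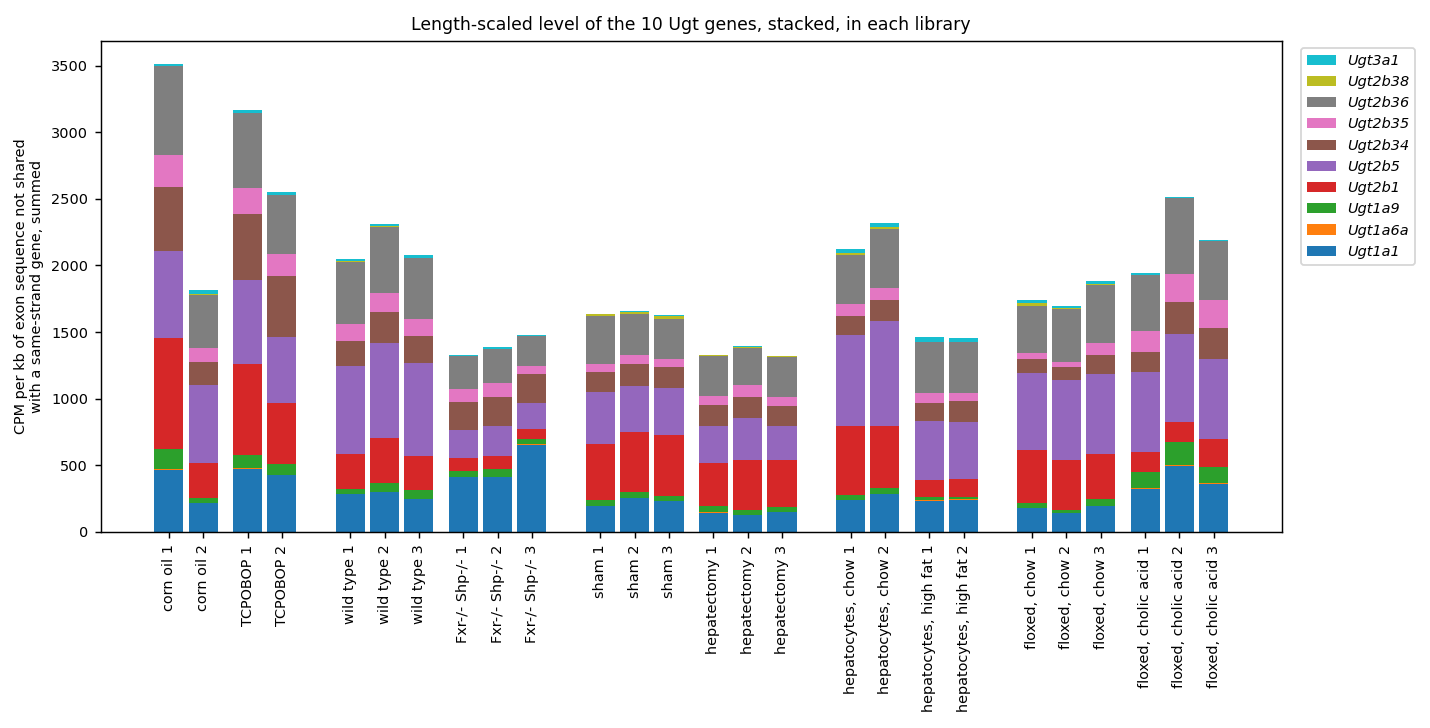
Stacked bars give, for each of the 26 libraries, the level of each member in CPM per kb of exon sequence not shared with a same-strand gene. The Ugt1a1 share widened in the 3 Fxr-/- Shp-/- libraries, and the Ugt2b1 layer was thin in those 3, in the 2 high fat libraries and in the 3 cholic acid libraries.

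Across the members, genes counted as called had an adjusted p under 0.05 in edgeR's quasi-likelihood test, with the adjustment made over all genes tested. In the double knockout 8 of the 10 were called, 2 raised and 6 lowered, where 40.4% of all tested genes were called, 21% raised and 19.4% lowered. Ugt2b38, among the 6 lowered, passed the filter on low counts there only through the wild-type libraries. On cholic acid 6 of 10 were called, 3 raised and 3 lowered, against 4.77% of all genes, 2.27% raised and 2.5% lowered. After hepatectomy 5 of 10 were called, 1 raised and 4 lowered, against 30.7% of all genes, 16.4% raised and 14.3% lowered. With the high fat diet 4 of 10 were called, all lowered, against 24% of all genes, 12.9% raised and 11.1% lowered. The median log2 fold changes of the 10 were -0.76, 0.44, -0.25 and -0.25 in that order, and those of all tested genes lay between -0.01 and 0.01. After TCPOBOP 0 of 10 were called, against 0% of all genes. Lack of overlap between treated and control libraries, given below for single members, was frequent among all tested genes. It held for 53.4% of them in the double knockout, 31.2% on cholic acid, 47.0% after hepatectomy and 68.2% with the high fat diet. Ugt2b1 was lowered in all 4 comparisons that gave calls, and Ugt2b34 was called in none of them.

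**Figure D2:**
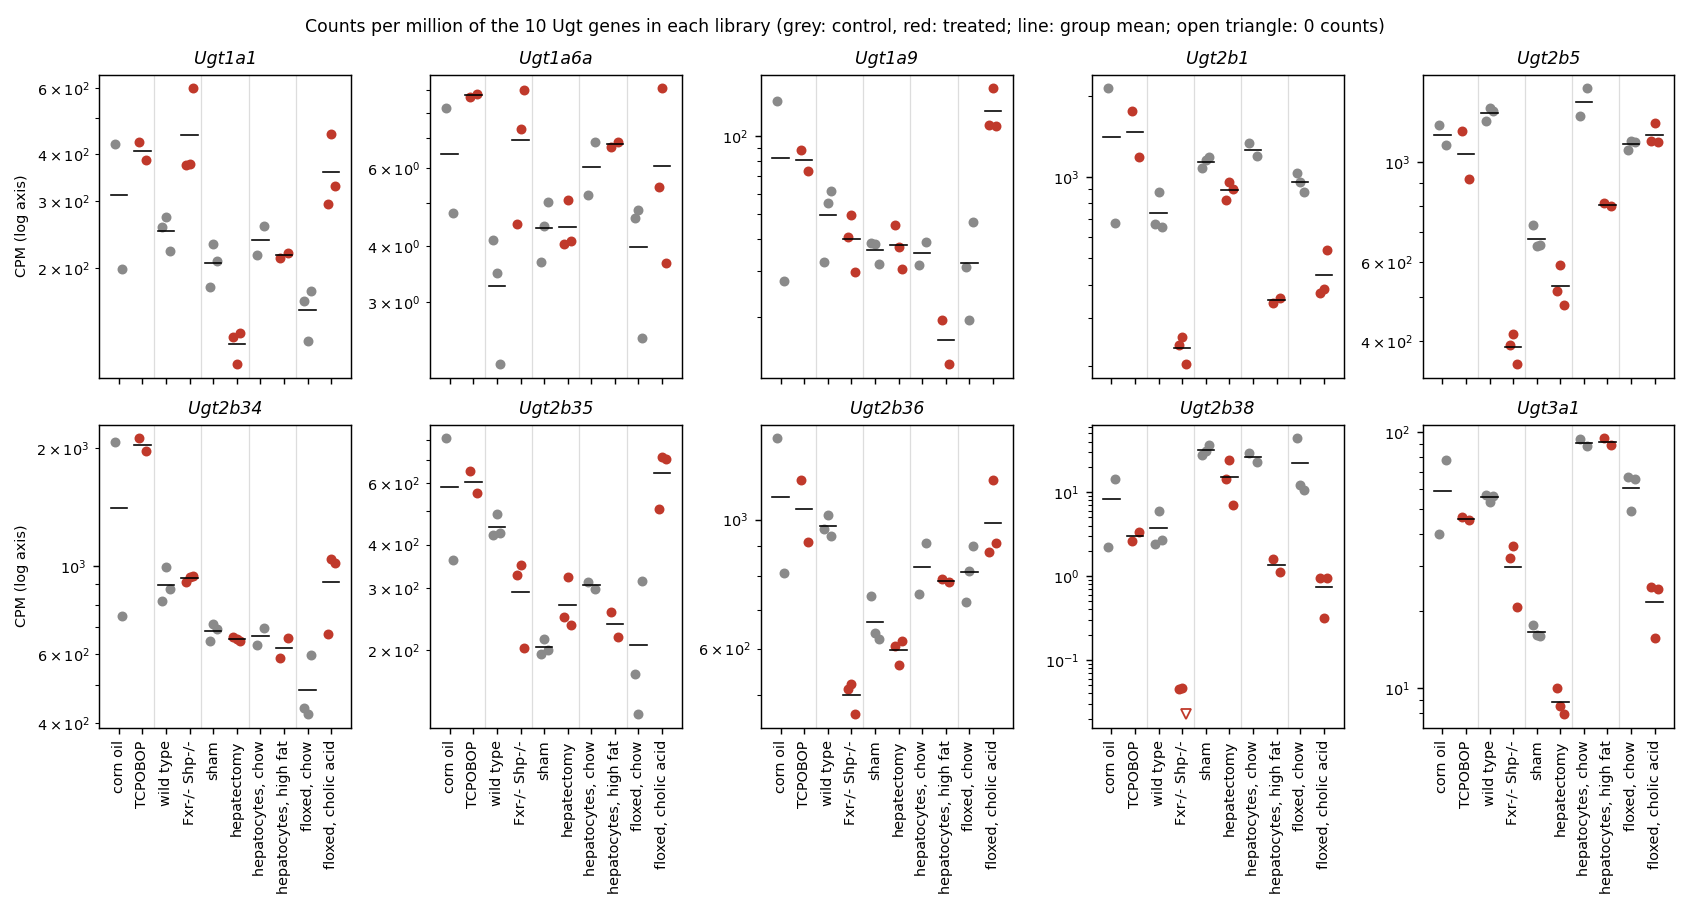
Each panel plots 1 member, with CPM on a log axis for each library, grouped by treatment, with group means as lines. Ugt2b38 spans the widest range, from 43.7 CPM in a floxed chow library to 0 counts in 1 Fxr-/- Shp-/- library.

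Ugt1a1, the enzyme that conjugates bilirubin, rose in the double knockout and on cholic acid and fell after hepatectomy. In wild type it stood at 257, 273 and 222 CPM, and in Fxr-/- Shp-/- livers at 374, 376 and 598 CPM. Every knockout library lay above every wild-type library, with knockout replicate 3 far above the other two. The log2 fold change was 0.84 ± 0.19 (SE; edgeR adjusted p 0.00754), and the call held without any 1 library. On chow the floxed livers stood at 163, 128 and 174 CPM and on cholic acid at 295, 453 and 330 CPM, again without overlap. The log2 fold change was 1.21 ± 0.22 (SE; edgeR adjusted p 0.0197). This call was lost without chow replicate 1 or 2 or cholic acid replicate 2 or 3, with adjusted p up to 0.0889. After hepatectomy Ugt1a1 fell from 178, 231 and 208 CPM in sham to 131, 111 and 134 CPM. All hepatectomy libraries were below all sham libraries. It fell by 0.71 ± 0.12 (log2, SE; edgeR adjusted p 0.00321), a call that held without any 1 library. In hepatocytes on the high fat diet it stood at 213 and 219 CPM against 216 and 258 CPM on chow, with overlap and no call.

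Ugt1a9, whose relatives conjugate phenolic drugs, was raised on cholic acid and lowered with the high fat diet. It stood at 31.2, 19.4 and 46.4 CPM on chow and at 111, 154 and 110 CPM on cholic acid. The lowest cholic acid library was above the highest chow library, and the log2 fold change was 1.95 ± 0.31 (SE; edgeR adjusted p 0.0141). The call was lost without chow replicate 1 or cholic acid replicate 2, with adjusted p up to 0.0541. In hepatocytes it fell from 31.6 and 38.9 CPM on chow to 19.5 and 13.1 CPM with the high fat diet, by 1.11 ± 0.20 (log2, SE; edgeR adjusted p 0.0176). That call was lost in a single fit over all 26 libraries (adjusted p 0.157). Wild type had 49.7 ± 15.1 CPM of Ugt1a9, and the double knockout 40.1 ± 10.0 CPM (SD, n = 3), with overlap. For each 100 counts of Ugt1a1, wild type had 20.2 ± 7.52 counts of Ugt1a9 and the double knockout 9.71 ± 4.26, with overlap. In the floxed livers this number was 20.3 ± 5.86 without and 34.99 ± 2.34 with cholic acid, without overlap (SD, n = 3). It was also higher after hepatectomy, at 22.8 to 34.7 against 15.3 to 21.7 in sham. With the high fat diet it was lower, at 6.00 to 9.15 against 14.6 to 15.1 on chow.

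Ugt1a6a, of the phenol-conjugating Ugt1a6 pair, was low throughout, with 35 to 499 counts per library. It rose from 4.14, 3.48 and 2.18 CPM in wild type to 4.48, 7.34 and 9.01 CPM in the double knockout. The groups did not overlap, but the lowest knockout library was close to the highest wild-type library. The log2 fold change was 1.08 ± 0.31 (SE; edgeR adjusted p 0.0216), and the call was lost without wild-type replicate 2 or 3 or knockout replicate 2, with adjusted p up to 0.0679. Its coding sequence is 98.4% identical to that of Ugt1a6b, which ranged from 46.3 to 57.4 CPM in wild type and from 47.5 to 60.0 CPM in the knockout. Ugt1a5, another gene of the cluster that is not among the members, had 5.69, 6.07 and 6.04 CPM in wild-type livers, and double knockout livers had 52.1, 48.4 and 56.5 CPM. These groups lay far apart (log2 fold change 3.14, edgeR adjusted p 3.4e-07). After hepatectomy it was lowered by 1.26 (log2, edgeR adjusted p 0.011). With all Ugt1a rows summed to 1 gene, the log2 fold change was 0.73 ± 0.15 in the knockout (SE; edgeR adjusted p 0.00578), 1.11 ± 0.22 on cholic acid (adjusted p 0.0300) and -0.64 ± 0.10 after hepatectomy (adjusted p 0.00199). It was -0.19 ± 0.11 with the high fat diet (adjusted p 0.249).

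Ugt2b1, which conjugates steroids and drugs, was the member lowered most widely. In the double knockout it went from 673, 883 and 654 CPM to 239, 256 and 204 CPM. All knockout libraries lay far below all wild-type libraries, and it fell by 1.66 ± 0.15 (log2, SE; edgeR adjusted p 6.74e-05). With the high fat diet it went from 1332 and 1195 CPM to 343 and 356 CPM and fell by 1.85 ± 0.10 (log2, SE; edgeR adjusted p 0.000831). On cholic acid it went from 1033, 958 and 882 CPM to 373, 386 and 538 CPM and fell by 1.15 ± 0.20 (log2, SE; edgeR adjusted p 0.0172). In all 3 comparisons the groups lay apart. The knockout and high fat calls held without any 1 library. The cholic acid call was lost without chow replicate 1 or 2 or cholic acid replicate 1 or 2, with adjusted p up to 0.0815. After hepatectomy the fall was smaller, from 1081, 1154 and 1184 CPM to 825, 960 and 907 CPM, or 0.35 ± 0.09 (log2, SE; edgeR adjusted p 0.0213). That call was lost without sham replicate 2 or 3 or hepatectomy replicate 1, with adjusted p up to 0.0852, and in a single fit over all 26 libraries (adjusted p 0.378).

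Ugt2b5 was lowered in the double knockout, with the high fat diet and after hepatectomy. It stood at 1234, 1321 and 1302 CPM in wild type and at 392.1, 414.5 and 355.4 CPM in the double knockout. It fell by 1.73 ± 0.10 (log2, SE; edgeR adjusted p 8.5e-06), with tight groups far apart. In hepatocytes it went from 1267 and 1462 CPM on chow to 813 and 798 CPM with the high fat diet and fell by 0.76 ± 0.10 (log2, SE; edgeR adjusted p 0.00868). On cholic acid it did not move past the test: 1068, 1117 and 1112 CPM on chow stood beside 1115, 1222 and 1112 CPM, a log2 fold change of 0.07 with a 95% interval from -0.29 to 0.42. After hepatectomy it fell from 725, 649 and 653 to 517, 590 and 481 CPM, by 0.35 ± 0.10 (log2, SE; edgeR adjusted p 0.0308). That call was lost without any 1 of the sham libraries or without hepatectomy replicate 1 or 3, with adjusted p up to 0.0901.

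Ugt2b38, the near copy of Ugt2b5, was the member with the largest fold changes. In hepatocytes it went from 29.6 and 22.9 CPM on chow to 1.59 and 1.10 CPM with the high fat diet and fell by 4.28 ± 0.23 (log2, SE; edgeR adjusted p 0.000831). On cholic acid it went from 43.7, 12.1 and 10.7 CPM to 0.941, 0.317 and 0.941 CPM and fell by 4.89 ± 0.68 (log2, SE; edgeR adjusted p 0.00982). The chow libraries differed among themselves, with replicate 1 above the other two, but none came near the cholic acid libraries. In the double knockout it had 1, 1 and 0 counts, against 45, 95 and 44 in wild type. By summed counts and depth, wild type was 104.7 times the knockout, with an exact 95% interval from 28.6 to 871 that covers counting error only, and the fitted log2 change was -6.66 (edgeR adjusted p 0.000159). In that comparison Ugt2b38 passed the filter on low counts only through the wild-type libraries. The knockout call thus adds nothing to these counts, and the size of the change is set by the floor of counting. The high fat and cholic acid calls held without any 1 library, and so did the knockout call, under the same limit. After hepatectomy it stood at 14.4, 24.03 and 7.11 CPM against 27.6, 30.9 and 36.1 CPM in sham, with no overlap. That difference did not pass the test (log2 fold change -1.06 ± 0.36 SE, edgeR adjusted p 0.0596), but it did without hepatectomy replicate 2 or 3 and without the filter on low counts. For each 1000 counts of Ugt2b5 there were 20.5 ± 17.7 of Ugt2b38 in the floxed livers on chow, and cholic acid livers had 0.650 ± 0.338 (SD, n = 3). In hepatocytes these numbers were 19.5 ± 5.45 on chow and 1.67 ± 0.402 with the high fat diet (SD, n = 2). The double knockout ranged from 0 to 0.117 and wild type from 1.96 to 4.55, so the ratio of this pair was lower without overlap in these 3 treated groups. After hepatectomy it ranged from 14.8 to 40.7, overlapping the sham range of 38.1 to 55.2.

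Ugt2b36 was called in the double knockout and in 0 of the other 3 comparisons with calls. It went from 962, 1020 and 937 CPM to 510, 522 and 463 CPM and fell by 0.96 ± 0.10 (log2, SE; edgeR adjusted p 0.000153), with no overlap and with the call kept without any 1 library. On cholic acid it stood at 880, 1171 and 911 CPM against 722, 815 and 900 CPM on chow, with overlap.

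Ugt2b35 was raised on cholic acid and after hepatectomy and lowered in the double knockout. It stood at 171, 131 and 316 CPM on chow and at 506, 714 and 704 CPM on cholic acid, without overlap, and chow replicate 3 was the highest of its group. The log2 fold change was 1.64 ± 0.33 (SE; edgeR adjusted p 0.0300). The call was lost when any library but chow replicate 3 was left out, with adjusted p up to 0.101. In the double knockout it fell from 427, 489 and 433 CPM to 328, 349 and 202 CPM, by 0.62 ± 0.19 (log2, SE; edgeR adjusted p 0.0293). That call was lost without any 1 wild-type library, with adjusted p up to 0.0879, and in the fit over all 26 libraries (adjusted p 0.0876). After hepatectomy it rose from 195, 215 and 200 to 248.5, 324 and 235.5 CPM (log2 fold change 0.41 ± 0.13 SE, edgeR adjusted p 0.0421). That call was lost without any 1 sham library or hepatectomy replicate 2, with adjusted p up to 0.131, and in the fit over all 26 libraries (adjusted p 0.328). In hepatocytes it stood at 313 and 298 CPM on chow and at 257 and 217 CPM with the high fat diet, without overlap. The log2 fold change there was -0.37 ± 0.11 (SE), short of the threshold in edgeR (adjusted p 0.0574) and past it in DESeq2's Wald test (adjusted p 0.0180).

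Ugt2b34 was called in none of the 4 comparisons. Wild-type livers had 815, 998 and 877 CPM and double knockout livers 911, 942 and 944 CPM, a log2 difference of 0.06 with a 95% interval from -0.19 to 0.30. The other 5 Ugt2b members were all lowered there. On cholic acid it stood at 675, 1046 and 1021 CPM against 438, 422 and 597 CPM on chow, with no overlap. The log2 fold change was 0.91 ± 0.23 (SE), short of the threshold (edgeR adjusted p 0.0643). It passed without chow replicate 3, without the filter on low counts, in the fit over all 26 libraries and with DESeq2.

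Ugt3a1 was lowered in the double knockout, on cholic acid and after hepatectomy. It went from 56.97, 53.5 and 56.6 CPM in wild type to 32.4, 36.0 and 20.7 CPM, and fell by 0.91 ± 0.18 (log2, SE; edgeR adjusted p 0.00418). On cholic acid it went from 66.7, 49.5 and 65.8 CPM to 24.96, 15.7 and 24.5 CPM, and fell by 1.48 ± 0.22 (log2, SE; edgeR adjusted p 0.0120). After hepatectomy it went from 17.6, 16.1 and 16.0 to 10.0, 8.52 and 7.94 CPM, and fell by 0.91 ± 0.12 (log2, SE; edgeR adjusted p 0.00109). The groups were apart each time, and all 3 calls held without any 1 library. With the high fat diet it stood at 94.8 and 89.3 CPM against 94.3 and 88.4 CPM on chow. On a common scaling of all 26 libraries, Ugt3a1 ranged from 15.6 to 17.4 CPM in the C3H/HeN sham livers and from 50.1 to 102.3 CPM in the C57BL/6J wild-type and chow groups, while the library labelled corn oil 1 had 38.8 and that labelled corn oil 2 had 76.0 CPM. Among treated C57BL/6J groups it ranged from 16.1 to 25.5 CPM on cholic acid, which reaches the sham range, from 19.6 to 34.2 CPM in the double knockout and from 99.1 to 105.8 CPM with the high fat diet. Strain cannot be told apart from the other differences between these experiments.

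**Figure D3:**
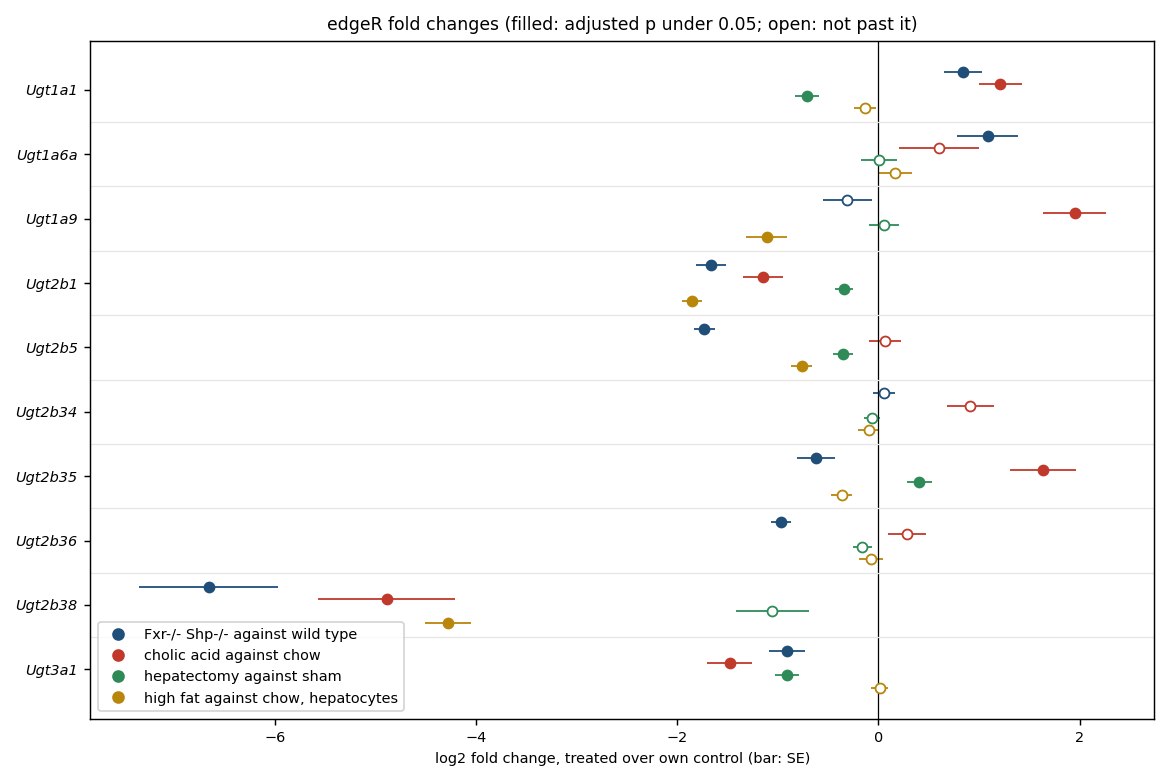
Points give each member's log2 fold change against its own control in 4 comparisons, bars give the SE, and filled points had an adjusted p under 0.05. Ugt2b1 lies left of 0 in all 4, Ugt1a1 lies right of 0 in the double knockout and on cholic acid only, and Ugt2b38 reaches -6.66. That value, in the double knockout, comes from knockout counts of 1, 1 and 0, so its size is not precise.

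Whole liver holds several cell types, so fewer cells of a type and less RNA per cell cannot be told apart in these values. Of the 8 hepatocyte markers, 4 were lowered in the double knockout and 0 raised. Of the cholangiocyte markers 4 of 5 were raised, and their summed level ranged from 27.3 to 38.0 CPM in wild type and from 57.4 to 134.8 CPM in the knockout. Of the stellate cell markers 4 of 6 were raised, with sums of 52.2 to 86.2 and 120.7 to 147.8 CPM, and 2 of 5 endothelial markers were also raised there. Of the 6 macrophage markers 2 were raised and 1 lowered. Of the 6 leukocyte markers 2 could be tested and 1 was raised. Their sums ranged from 5.44 to 8.70 CPM in wild type and from 15.5 to 33.2 CPM in the knockout. In the isolated hepatocytes, 5 of 5 endothelial markers were raised with the high fat diet, from sums of 34.6 to 36.7 CPM to sums of 85.3 to 87.7 CPM, and Epcam and Krt19 were at 0 in both chow libraries. The 6 macrophage markers had sums of 19.9 to 20.3 CPM on chow and 32.9 to 36.5 CPM with the high fat diet, 3 of them raised, and the 6 stellate cell markers had sums of 4.02 to 7.66 and 19.6 to 21.1 CPM, 4 of them raised. On cholic acid 1 of 8 hepatocyte markers was lowered, 1 of 6 stellate cell markers was raised and 0 of the other markers were called. After hepatectomy 4 of 8 hepatocyte markers were lowered and 1 raised, 2 of 6 stellate cell, 1 of 5 cholangiocyte and 1 of 6 macrophage markers were raised, and 1 of 5 endothelial markers was lowered. With the high fat diet 2 of 8 hepatocyte markers were lowered. Of the leukocyte markers 1 could be tested there and was raised, with sums of 0.642 to 1.31 CPM on chow and 2.08 to 2.43 CPM with the high fat diet. Of all tested genes, 40.4% were called in the double knockout, 30.7% after hepatectomy, 24% with the high fat diet and 4.77% on cholic acid. The part of these marker shifts in the Ugt results was not tested.

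Effects of different treatments were compared directly for the 3 whole-liver experiments with 3 libraries per group, as differences of log2 fold changes in a joint edgeR fit of the 12 libraries. The experiments also differ in strain, age, feeding and genotype. Between double knockout and cholic acid, 5 of 10 members differed, against 13.9% of all genes. Ugt2b35 (-2.25 ± 0.42 SE, edgeR adjusted p 0.00406), Ugt1a9 (-2.25 ± 0.44, adjusted p 0.00541), Ugt2b5 (-1.79 ± 0.17, adjusted p 4.81e-05) and Ugt2b36 (-1.24 ± 0.21, adjusted p 0.00218) had a lower fold change in the knockout. Ugt2b34 was at the threshold (-0.85 ± 0.26, adjusted p 0.0496), and with DESeq2 size factors 4 members differed. The Ugt1a1 effects did not differ past the test, at -0.37 with a 95% interval from -1.02 to 0.28, and neither did those of Ugt2b1, at -0.51 with an interval from -1.04 to 0.02.

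Between hepatectomy and cholic acid, 5 of 10 members differed, against 13% of all genes. Ugt1a1 (-1.92 ± 0.25 SE, edgeR adjusted p 0.000725), Ugt1a9 (-1.89 ± 0.37, adjusted p 0.00674) and Ugt2b34 (-0.97 ± 0.25, adjusted p 0.0246) had a lower fold change after hepatectomy. Ugt2b38 (3.84 ± 0.84, adjusted p 0.0112) and Ugt2b1 (0.81 ± 0.21, adjusted p 0.0263) had a higher one, their fall on cholic acid being the larger. Between double knockout and hepatectomy, 7 of 10 differed, against 31.5% of all genes. Ugt1a1 (1.57 ± 0.24 SE, edgeR adjusted p 0.00034) and Ugt1a6a (1.09 ± 0.38, adjusted p 0.042) were higher in the knockout comparison. The other 5, Ugt2b1, Ugt2b5, Ugt2b35, Ugt2b36 and Ugt2b38, were lower, by differences from -0.79 to -5.64. The value of -5.64 is that of Ugt2b38, which had 1, 1 and 0 counts in the knockout. The Ugt3a1 effects differed by 0.02 with a 95% interval from -0.47 to 0.50.

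Glucuronidation needs UDP-glucuronic acid, which Ugp2 and Ugdh supply, and Slc35d1 carries it into the endoplasmic reticulum. Of a list of 10 genes for the supply, transport and removal of glucuronic acid, 5 were raised and 0 lowered in the double knockout, where 40.4% of all tested genes were called and 21% raised. They were Rgn, Ugdh, Entpd5, Ugp2 and Gusb, with log2 fold changes of 1.25, 0.88, 0.75, 0.51 and 0.46. Ugdh, the enzyme that makes UDP-glucuronic acid, ranged from 323 to 348 CPM in wild-type livers and from 498 to 702 CPM in knockout livers. On cholic acid 2 were raised and 2 lowered, against 2.27% and 2.5% of all genes. Ugdh rose there by 1.37 (log2, edgeR adjusted p 0.023) and Gusb, which splits glucuronides, by 0.90. The ascorbate pathway genes Gulo and Rgn fell by 1.52 and 0.92. With the high fat diet 3 were raised and 1 lowered, against 12.9% and 11.1% of all genes. After hepatectomy 1 was raised and 2 lowered, against 16.4% and 14.3%. Ugp2 rose by 0.70 with the high fat diet and fell by 0.62 after hepatectomy.

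Of 12 genes of bilirubin and glucuronide handling, 5 were raised and 4 lowered in the double knockout, against 21% and 19.4% of all tested genes. The heme oxygenase Hmox1, which begins bilirubin formation, rose by 2.96 (log2, edgeR adjusted p 0.00019), and the exporter Abcc4 by 4.79. The exporter Abcc2 fell by 0.56 there and rose by 0.84 on cholic acid. The uptake carrier Slco1a1 was lowered in all 4 comparisons with calls, on cholic acid from a range of 446 to 656 CPM to a range of 13.5 to 105.3 CPM. Counts over the same list were 3 raised and 1 lowered on cholic acid, against 2.27% and 2.5% of all genes. They were 0 and 4 with the high fat diet, against 12.9% and 11.1%, and 1 and 5 after hepatectomy, against 16.4% and 14.3%.

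Of 17 regulators of Ugt genes, 2 were raised and 7 lowered in the double knockout, against 21% and 19.4% of all tested genes. On cholic acid 3 were raised and 1 lowered, against 2.27% and 2.5%. With the high fat diet 2 were raised and 3 lowered, against 12.9% and 11.1%. After hepatectomy 2 were raised and 5 lowered, against 16.4% and 14.3%. Those lowered in the knockout include the mutated Nr1h4 and Nr0b2, and Arnt and Nfe2l2 were raised there by 0.71 and 0.65 (log2). On cholic acid Nr0b2, Stat5b and Nr1i2 were raised and Nr1h4 was lowered. Nr1i3, which encodes CAR, was lowered in the double knockout by 1.04 and after hepatectomy by 0.71 (log2). Hnf4a was lowered in the knockout by 0.78 and with the high fat diet by 0.68. All 4 NRF2 target genes of the list were raised on cholic acid, Gstm1 by 3.21, Nqo1 by 2.52, Gclc by 1.68 and Srxn1 by 1.52, and 3 of the 4 were raised in the double knockout, 2 with the high fat diet and 1 after hepatectomy. Of the 5 CAR and PXR targets, 3 were raised in the knockout, 2 were raised on cholic acid, 3 were lowered with the high fat diet and 1 was lowered after hepatectomy. Of the 3 AHR targets that could be tested, 0 were raised in any comparison, and 1 was lowered after hepatectomy and 1 with the high fat diet. Of the 3 PPARalpha targets, 1 was raised in the knockout and 1 with the high fat diet.

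TCPOBOP is a test of CAR, whose known targets include Ugt1a1, but 1 library went against its label. The library labelled corn oil 1 held 3786 CPM of Cyp2b10, the leading CAR target, where that labelled corn oil 2 held 10.3 CPM and the TCPOBOP libraries 3465 and 3079 CPM. The Ugt genes had the same layout. For Ugt1a1, the library labelled corn oil 1 held 425 CPM, that labelled corn oil 2 held 198 CPM, and TCPOBOP gave 432 and 386 CPM. For Ugt2b34 the values in that order were 2067, 750, 2116 and 1963 CPM, and for Ugt2b1 they were 2132, 676, 1761 and 1182 CPM. The library labelled corn oil 2 was thus the low one. It was the high one for Ugt2b38, with 2.22, 14.5, 2.65 and 3.33 CPM, and for Ugt3a1, with 40.0, 78.3, 46.5 and 45.5 CPM. Ugt2b5 differed little, with 1214, 1092, 1174 and 917 CPM. No member was called in edgeR's test, 751 of 12785 genes had an unadjusted p under 0.05, and DESeq2 called 0 members and 91 genes. Without the library labelled corn oil 1, the log2 fold change was 1.05 for Ugt1a1, 1.45 for Ugt2b34 and 1.56 for Ugt1a9. It was -2.27 for Ugt2b38 and -0.76 for Ugt3a1. That fit leaves 1 control library, which is assumed to vary like the TCPOBOP pair. Without the library labelled corn oil 2, the value for Ugt1a9 was -0.76. No direction is drawn from this comparison.

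**Figure D4:**
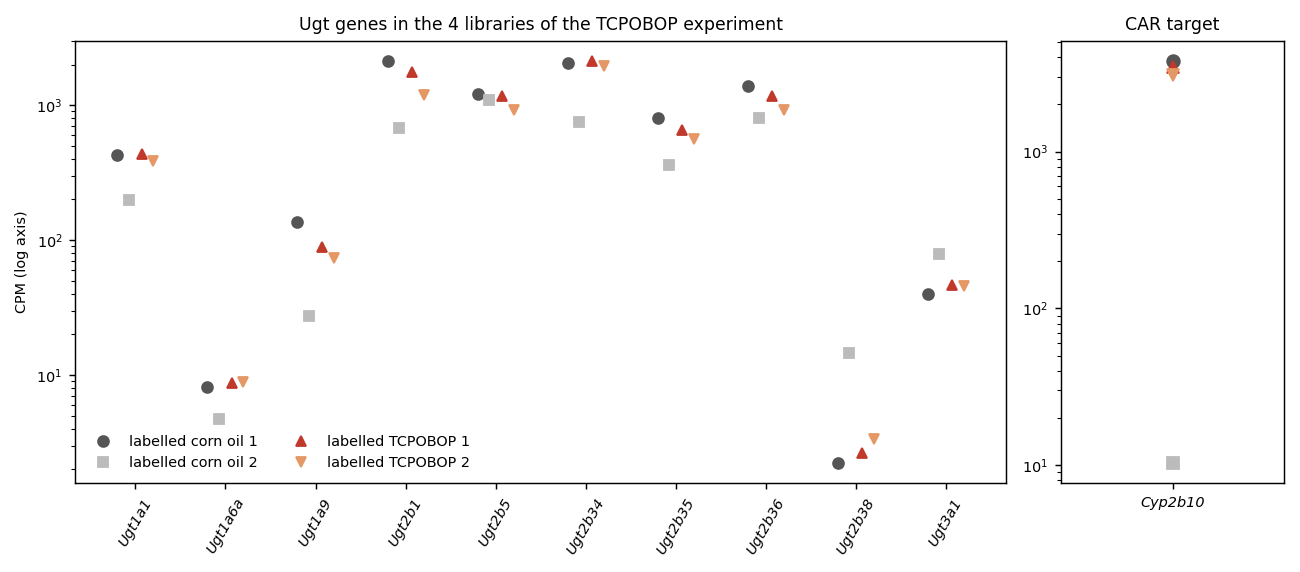
Symbols give CPM on a log axis for the 10 members (left) and the CAR target Cyp2b10 (right) in the 4 libraries of the TCPOBOP experiment. The library labelled corn oil 1 lies with the TCPOBOP libraries for Cyp2b10, Ugt1a1 and Ugt2b34, and the library labelled corn oil 2 lies apart.

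Among the other Ugt rows, Ugt3a2, the neighbour of Ugt3a1, was lowered on cholic acid by 1.04, in the double knockout by 0.39 and after hepatectomy by 0.29 (log2). Its coding sequence is 93.2% identical to that of Ugt3a1. Ugt2a3 was lowered after hepatectomy by 0.57 and in the knockout by 0.63. Ugt2b37 was lowered with the high fat diet by 2.57. Of the other Ugt rows tested in the double knockout, 1 of 5 was raised and 2 lowered, against 21% and 19.4% of all genes. On cholic acid 0 of 6 were raised and 1 lowered, against 2.27% and 2.5%. After hepatectomy 0 of 7 were raised and 5 lowered, against 16.4% and 14.3%. With the high fat diet 0 of 7 were raised and 2 lowered, against 12.9% and 11.1%. Ugt2a1 and Ugt2a2 had 0 counts in all 26 libraries, but only 30 and 140 of their exonic bases are not shared with another gene, so these counts say nothing about expression.

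Likeness of pattern was measured over the 22 libraries outside the TCPOBOP experiment, as Pearson's r of log2 values after the mean of each library's own control group was removed. The libraries of a treatment share that mean, so r is a description. Among 11072 genes, those most like Ugt1a1 were Tmem87b (0.95), Adssl1 (0.95) and Cyp2a5 (0.94). Among the members, the most alike were Ugt1a9 with Ugt2b35 (0.91), Ugt2b1 with Ugt2b38 (0.90) and Ugt2b5 with Ugt2b36 (0.87). The least alike were Ugt2b34 with Ugt3a1 (-0.77).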

How the data were processed

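The 26 libraries were made from polyadenylated RNA with a stranded kit, per the labels' protocols. Per the submitters' processing notes, the tools included bcl2fastq 2.17.1.14, Trimmomatic, STAR 2.4.2a, Picard 1.119 and HTSeq, with the GRCm38 (mm10) build. The annotation version, the strand setting and the treatment of overlapping genes are not given in the sources used here. The authors deposited 1 table of raw counts per gene. The 5 summary lines, which name no gene, stayed out of library sizes and tests.

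Each treated group was fitted with its own control in edgeR 4.0.16 (R 4.3.3): filterByExpr, TMM scaling, the quasi-likelihood F test and Benjamini-Hochberg adjustment over all genes tested, with calls at an adjusted p under 0.05. DESeq2 1.42.0 was an alternative. The SE is the absolute log2 fold change over the square root of F. The procedure was tested on simulated data. A count of 0 allows up to 3 counts. Sequences and motifs came from RefSeq promoters of GRCm38.p6, gene models from GENCODE M21. Replicates of a group differed by more than sampling noise, so none were merged.

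All 10 members are named, and other genes only from gene lists, apart from the antisense gene Gm20528 and the genes nearest in pattern to a member. Members and lists were chosen with earlier results of these data known. A listed gene and a motif are not reported here.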

Additional observations from a re-analysis of the deposited data

How the results depend on the processing

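Groups of 2 or 3 libraries limit all calls, and the low counts of Ugt2b38 and Ugt1a6a limit theirs. DESeq2 size factors and a mean count of at least 10 changed no member's call within the 5 comparisons. The fit over all 26 libraries called 9 genes for TCPOBOP, 1735 for the high fat diet (main 3333), 3132 for cholic acid (main 600), 2991 for the knockout against cholic acid difference (main 1939) and 2749 for the hepatectomy against cholic acid difference (main 1820). It called 3 members after hepatectomy in place of 5. DESeq2's Wald test called 91 genes for TCPOBOP and 1445 for cholic acid, and no filter on low counts called 955 for cholic acid. The causes were not tested. When 1 library was left out, genes called ranged from 0 to 1233 for TCPOBOP, 2554 to 4217 for hepatectomy, 1141 to 2644 for the high fat diet, 189 to 1345 for cholic acid and 3969 to 6024 for the knockout. Members called ranged from 0 to 7 for TCPOBOP, 2 to 5 for hepatectomy, 2 to 7 for cholic acid (2 without chow replicate 1 or cholic acid replicate 2, 7 without chow replicate 3) and 6 to 8 for the knockout, and stayed at 4 for the high fat diet.

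The main fits did not pair libraries by the replicate numbers of the titles. Same-numbered libraries correlated at 0.12 for TCPOBOP, -0.20 to -0.01 for the knockout and -0.08 to 0.10 for hepatectomy. They correlated at 0.13 for the high fat diet and 0.10 to 0.16 for cholic acid. Libraries with different numbers correlated at -0.07 to 0.11 for the knockout, -0.16 to 0.13 for hepatectomy and -0.11 to -0.05 for cholic acid. The numbers may thus pair the cholic acid samples. With 2 libraries per group, same and different numbers give 1 value with opposite signs, which cannot decide on pairing. With the replicate block, genes called were 0 for TCPOBOP, 4763 for the knockout, 3664 for hepatectomy, 3693 for the high fat diet and 480 for cholic acid, and members called were 0, 8, 4, 5 and 5. The calls of Ugt1a1 on cholic acid (adjusted p 0.0557) and Ugt2b5 after hepatectomy (0.0536) did not pass with it, and Ugt2b35 with the high fat diet did (0.0354). With the block the uncalled Ugt1a9 value for TCPOBOP turned from -0.02 to 0.38.

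The other reversals were of values that had not been called, when 1 library was left out. For TCPOBOP the log2 fold changes then ranged from -0.052 to 1.05 for Ugt1a1, -0.76 to 1.56 for Ugt1a9, -0.53 to 1.13 for Ugt2b1, -0.32 to 0.049 for Ugt2b5, -0.017 to 1.45 for Ugt2b34, -0.41 to 0.74 for Ugt2b35, -0.40 to 0.37 for Ugt2b36, -2.27 to 0.43 for Ugt2b38 and -0.76 to 0.21 for Ugt3a1. For the knockout the range was -0.012 to 0.14 for Ugt2b34. For hepatectomy it was -0.11 to 0.12 for Ugt1a6a and -0.10 to 0.18 for Ugt1a9. For the high fat diet it was -0.023 to 0.37 for Ugt1a6a, -0.22 to 0.072 for Ugt2b36 and -0.040 to 0.054 for Ugt3a1.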

Other observations

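The genes nearest in pattern to Ugt2b38 over the 22 libraries outside the TCPOBOP experiment were Hsd3b5 (r = 0.94), Selenbp2 (0.94) and C8b (0.91). Those nearest to Ugt2b1 were Serpina1e (0.95), Cyp7b1 (0.94) and C6 (0.94), and those nearest to Ugt3a1 were Cyp2j5 (0.92), Dio1 (0.91) and Cog4 (0.90). These names were chosen after their values were seen. On a common scaling, the control groups differed in Ugt2b38 as well: 2.32 to 5.72 CPM in the wild-type livers, 27.3 to 35.1 CPM in the C3H/HeN sham livers, 25.1 to 32.1 CPM in hepatocytes on chow and 10.9 to 44.6 CPM in the floxed livers on chow.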
